A study of Mus musculus with 8 samples.

Results

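The expression of 10 genes that shape the extracellular matrix was examined in primary mouse peritoneal mesothelial cells (MCs), the cells that line the abdominal cavity. They are 7 proteases of the ADAMTS family (Adamts1, Adamts2, Adamts4, Adamts5, Adamts9, Adamts12 and Adamts15) and 3 tissue inhibitors of metalloproteinases (Timp1, Timp2 and Timp3), out of 13687 genes in the RNAseq table. The set was chosen on measured values: Adamts5 was picked because its level was lower on stretch than in static culture in every animal. The other 9 were named with it as relatives and inhibitors, with earlier results of these data known, so their choice was not blind. Adamts5 was selected on its stretch values, so these are given as a description, without a test. No count in the stretch comparison is read as support. All 10 were present, and all 10 passed the filter on low values, a normalized count of at least 1 in at least 2 libraries, which kept 13665 genes. MCs came from the parietal peritoneum of 4 mice, 2 wild type (WT, animals 3 and 4) and 2 lacking caveolin-1 (CAV1-/-, animals 1 and 2), which were littermates of mixed sex with no age given for these cultures. CAV1 is a scaffold protein of caveolae, the small pits of the plasma membrane that flatten under tension, and its deletion is in the germline rather than in MCs alone. Cells were grown to confluence and then either kept static or exposed to cyclic stretch for 24 h. Each mouse gave 1 static and 1 stretched culture, so that there were 8 libraries in 4 groups of 2 cultures: static WT, stretched WT, static CAV1-/- and stretched CAV1-/-.

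ADAMTS proteases are secreted zinc enzymes with a catalytic domain and thrombospondin repeats that hold them in the matrix. Several of them (Adamts1, 4, 5, 9 and 15) cut the large proteoglycans versican and aggrecan, Adamts2 removes the amino-terminal propeptide of fibrillar procollagens, and Adamts12 cuts cartilage oligomeric matrix protein. TIMPs bind the active site of metalloproteinases, and Timp3, which stays bound to the matrix, is the main physiological inhibitor of the aggrecan-cutting ADAMTS enzymes.

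Totals were between 9777738 and 21203938 reads per library, and each of the 4 stretched libraries was deeper than every static one. Cav1 checked the labels: its level was 275 to 764 TMM-normalized CPM (counts scaled to a library of 1000000 reads) in static WT and 247 to 570 in stretched WT cultures, against 18.9 to 34.5 and 12.8 to 20.0 in the CAV1-/- cultures. Of 12 mesothelial marker genes 11 were measured and none was at 0 in any library. Their summed level was 2823 to 3575 CPM in the 4 WT libraries and 844 to 1084 in the 4 CAV1-/- libraries. Wt1 (94.9 to 133 CPM in WT and 74.9 to 138 in CAV1-/-) and Krt19 (21.7 to 65.9 and 2.67 to 69.4) overlapped between the genotypes. Each other measured marker was lower in all 4 CAV1-/- libraries than in every WT library. Leukocyte markers (11 of 12 measured, none at 0) summed to 4381 and 4549 CPM in the static and stretched cultures of CAV1-/- animal 1, with all 11 genes highest in these 2 libraries, against 67.7 to 443 in WT and 274 and 306 in CAV1-/- animal 2. Fibroblast markers summed to 7009 to 7863 CPM in animals 1 and 3 and to 10308 to 16259 in animals 2 and 4, most of it Col1a1. Smooth muscle and pericyte markers summed to 977 and 1212 CPM in animal 1 and to 208 to 643 in the other 3 animals. Of 4 measured, 2 were highest in both cultures of animal 1 (Myh11 and Cnn1), while Cspg4 was highest in WT animal 4 (39.3 and 74.2 CPM). Endothelial markers summed to 22.7 to 71.8 in all 8 libraries, with Emcn at 0 in both cultures of animal 2. Their sum and Kdr were lowest in animal 1, where 3 of 5 measured (Cdh5, Emcn and Vwf) were highest. The part of these cells in the results below was not tested, and fewer cells of a type cannot be told apart from less RNA per cell. All comparisons were fitted together by limma on log2(CPM + 1) over the 13665 genes with Benjamini-Hochberg adjustment, and a gene was called at an adjusted p under 0.05. Cultures of the same animal share that animal, so every stretch comparison was also fitted with the animal as a block. With 2 cultures a group, p-values rest on a spread shared over the 4 groups, and an exact permutation of 2 against 2 cultures could not go below 0.333.

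The inhibitors were far more abundant than the proteases. Divided by the exonic length of each gene (0.888 kb for Timp1 and 15.05 kb for Adamts9 at the ends of the range), levels averaged over the 8 libraries were 887 ± 323 CPM per kb for Timp1, 342 ± 83.9 for Timp3 and 246 ± 115 for Timp2 (SD, n = 8). The most abundant proteases followed at 16.7 ± 8.502 for Adamts1 and 16.5 ± 4.07 for Adamts2, and then Adamts5 (9.15 ± 4.67), Adamts4 (8.77 ± 5.34), Adamts9 (5.32 ± 2.97) and Adamts12 (3.26 ± 1.24). Adamts15 was near the detection limit, at 0.185 ± 0.241. Timp2, the lowest of the inhibitors, was above Adamts1 in 8 of 8 libraries, and Adamts12 was above Adamts15 in 8 of 8. Among the neighbours in between the order was not settled: Adamts1 was above Adamts2 in 3 of 8 libraries and Adamts5 above Adamts4 in 4 of 8.

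**Figure D1:**
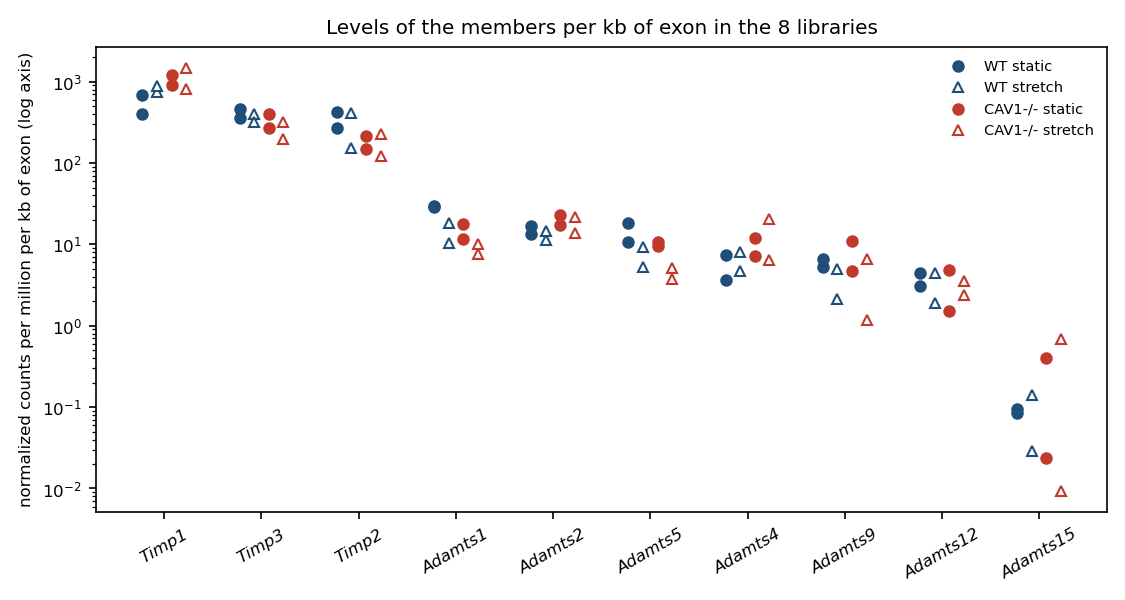
Level of each member in the 8 libraries, in normalized CPM per kb of exon on a log axis, ordered by the mean. Filled circles are static and open triangles stretched cultures, blue WT and red CAV1-/-; Timp1 was between 406 and 1467 and Adamts15 between 0.00936 and 0.697 CPM per kb.

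Adamts1, which cuts versican and aggrecan, lies on chromosome 16 (85793827-85803113, minus strand, GRCm38), and 53.1 kb without a protein-coding gene separate it from Adamts5 on the same strand. Its levels were 156 and 153 CPM in the static WT cultures, 61.1 and 93.8 in static CAV1-/-, 54.7 and 97.1 in stretched WT and 40.3 and 53.7 in stretched CAV1-/- (each pair in the order of the labels' numbers). Both CAV1-/- cultures were below both WT cultures in either condition, as held for 1263 of all 13665 genes. Each stretched culture was below the static culture of its animal. The group means were 154 ± 2.33 and 77.4 ± 23.1 CPM in static WT and CAV1-/- MCs and 75.9 ± 29.99 and 47.0 ± 9.53 after stretch (SD, n = 2). Within animals the level was 34.1% and 42.7% lower on stretch in CAV1-/- animals 1 and 2 and 64.9% and 36.4% lower in WT animals 3 and 4. Averaged over both genotypes the difference was -0.88 on the log2 scale (SE 0.231, limma adjusted p = 0.984, unadjusted 0.00857). With the animal as a block the same difference had an SE of 0.135 and was called at an adjusted p of 0.0421 (limma). That call did not hold without animal 1 or without animal 2, where almost no gene at all was called, and held without animal 3 and animal 4. By edgeR's quasi-likelihood test with the same block the adjusted p was 0.0556. In single genotypes the stretch differences were -1.07 in WT and -0.69 in CAV1-/- MCs (SE 0.327 for both), called in neither, with or without the block.

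Adamts5, the main aggrecanase of mouse cartilage, lies at 85856173-85901828 on chromosome 16. It was at 199 and 117 CPM in static WT, 116 and 104 in static CAV1-/-, 101 and 56.7 in stretched WT and 40.5 and 55.2 in stretched CAV1-/- MCs. These are the values that placed it here: on stretch it was lower by 65.2% and 47.0% in animals 1 and 2 and by 49.0% and 51.3% in animals 3 and 4. The stretched culture of WT animal 3, at 101 CPM, was close to the static cultures of the CAV1-/- animals. The genotype comparison was not used for its choice. Both CAV1-/- cultures were below both WT cultures in either condition, as held for 1263 of all 13665 genes. In static culture the closest pair was only 0.225 CPM apart. The genotype differences were -0.47 in static (SE 0.361, limma adjusted p = 0.842) and -0.67 in stretched cultures (adjusted p = 0.910). Without WT animal 3's culture of the condition they were -0.082 and -0.26.

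Adamts9, a versican-cutting enzyme needed for heart and vessel development, spans 92772699-92943492 on chromosome 6. Its levels were 79.4 and 99.5 CPM in static WT, 71.9 and 164 in static CAV1-/-, 32.5 and 75.5 in stretched WT and 17.9 and 101 in stretched CAV1-/- MCs. It was lower on stretch in each animal, by 75.2%, 38.5%, 59.0% and 24.1% in animals 1 to 4, while the animals themselves lay far apart. Animal 1 was the lowest and animal 2 the highest in both conditions, and animals 1 and 3 were below animals 2 and 4 in both, as the fibroblast markers were. The mean stretch difference was -1.08 (SE 0.604, limma adjusted p = 0.991), and with the animal as a block it had an SE of 0.222 and an adjusted p of 0.0726. Genotypes overlapped in both conditions. Exons of A730049H05Rik on the opposite strand cover 9.18% of the Adamts9 exonic length. The kit is not stated to keep strand, but that gene was at 0.247 to 2.78 CPM.

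The 250 bases before the annotated start of Adamts1 and Adamts9 are shown because, besides Adamts5, these 2 proteases had the largest mean stretch differences of the set (RefSeq, GRCm38.p6, in which 7 of the 10 members were matched). Capitals mark a TATA box (TATAAA on either strand), searched after the sequences had been seen. Both run 5′ to 3′ on the minus strand, Adamts1 from chr16:85803114-85803363 and Adamts9 from chr6:92943535-92943784.
Adamts1: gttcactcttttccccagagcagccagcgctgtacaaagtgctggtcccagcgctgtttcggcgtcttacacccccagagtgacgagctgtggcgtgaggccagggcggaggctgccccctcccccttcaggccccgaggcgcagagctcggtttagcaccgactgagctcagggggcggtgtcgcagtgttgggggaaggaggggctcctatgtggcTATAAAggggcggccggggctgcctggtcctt
Adamts9: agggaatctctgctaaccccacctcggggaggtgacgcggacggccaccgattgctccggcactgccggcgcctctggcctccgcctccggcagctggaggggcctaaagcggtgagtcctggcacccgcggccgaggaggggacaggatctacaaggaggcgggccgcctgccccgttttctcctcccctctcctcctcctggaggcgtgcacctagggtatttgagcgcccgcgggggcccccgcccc
The Adamts1 promoter holds TATAAA starting 32 bases before the start, as do 12.4% of all 32851 promoters of the same length anywhere in the window, and its GC content was 65.6% against a median of 52.4%. Adamts9 has no such box and a GC content of 71.2%. GGAATG, bound by the TEAD partners of YAP, was in neither, and among the members it was found in Timp1 alone (12.6% of all promoters). TGANTCA of AP-1 (6.75% of promoters) and GTCTAGAC of SMAD factors (0.167%) were found in none of the 7.

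Adamts4, the other classical aggrecanase, was higher on stretch in 3 of 4 animals. It was at 17.6 and 35.8 CPM in static WT, 34.8 and 58.3 in static CAV1-/-, 22.9 and 38.6 in stretched WT and 31.3 and 98.3 in stretched CAV1-/- MCs. The stretched culture of CAV1-/- animal 2 stood above all others, and the genotypes overlapped in both conditions. On stretch it was higher by 68.7% in animal 2, 30.6% in animal 3 and 7.57% in animal 4 and lower by 9.88% in animal 1, a mean difference of 0.27 (SE 0.442, limma adjusted p = 0.999). In the fit without a block that mean turned to -0.14 without the stretched culture of animal 2. There the stretched culture of animal 1 was set against both static CAV1-/- cultures. CAV1-/- was above WT by 0.82 in static (adjusted p = 0.840) and 0.88 in stretched cultures (adjusted p = 0.958), with an SE of 0.625 for each. These were 0.32 without the static culture of WT animal 3 and 0.072 without the stretched culture of CAV1-/- animal 2.

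Adamts15, a further versican-cutting enzyme, was covered by few reads: 14 and 11 in static WT, 3 and 40 in static CAV1-/-, 6 and 24 in stretched WT and 2 and 132 in stretched CAV1-/- MCs. Both cultures of animal 2 were the highest and both of animal 1 at or below 3 reads, the smallest amount taken as detectable. No fold is given for it.

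Adamts2, the procollagen I N-proteinase, was steadier. It was at 127 and 156 CPM in static WT, 162 and 212 in static CAV1-/-, 105 and 135 in stretched WT and 129 and 205 in stretched CAV1-/- MCs. It was lower on stretch in each animal, by 20.48%, 3.19%, 16.9% and 13.2% in animals 1 to 4, and the mean difference of -0.21 was not called (SE 0.193, limma adjusted p = 0.991, and 0.156 with the animal as a block). Both static CAV1-/- cultures were above both static WT cultures (0.40, SE 0.273, adjusted p = 0.822), and the stretched ones overlapped (0.44, adjusted p = 0.950). Without CAV1-/- animal 2's culture of the condition these were 0.20 and 0.11.

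Adamts12 showed no common direction. It was at 33.5 and 48.1 CPM in static WT, 52.7 and 16.8 in static CAV1-/-, 20.9 and 48.2 in stretched WT and 38.2 and 26.2 in stretched CAV1-/- MCs. Animals 1 and 3 were lower on stretch, animal 2 was higher and animal 4 was at the same level in both cultures (48.1 and 48.2 CPM). Genotypes overlapped in both conditions.

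**Figure D2:**
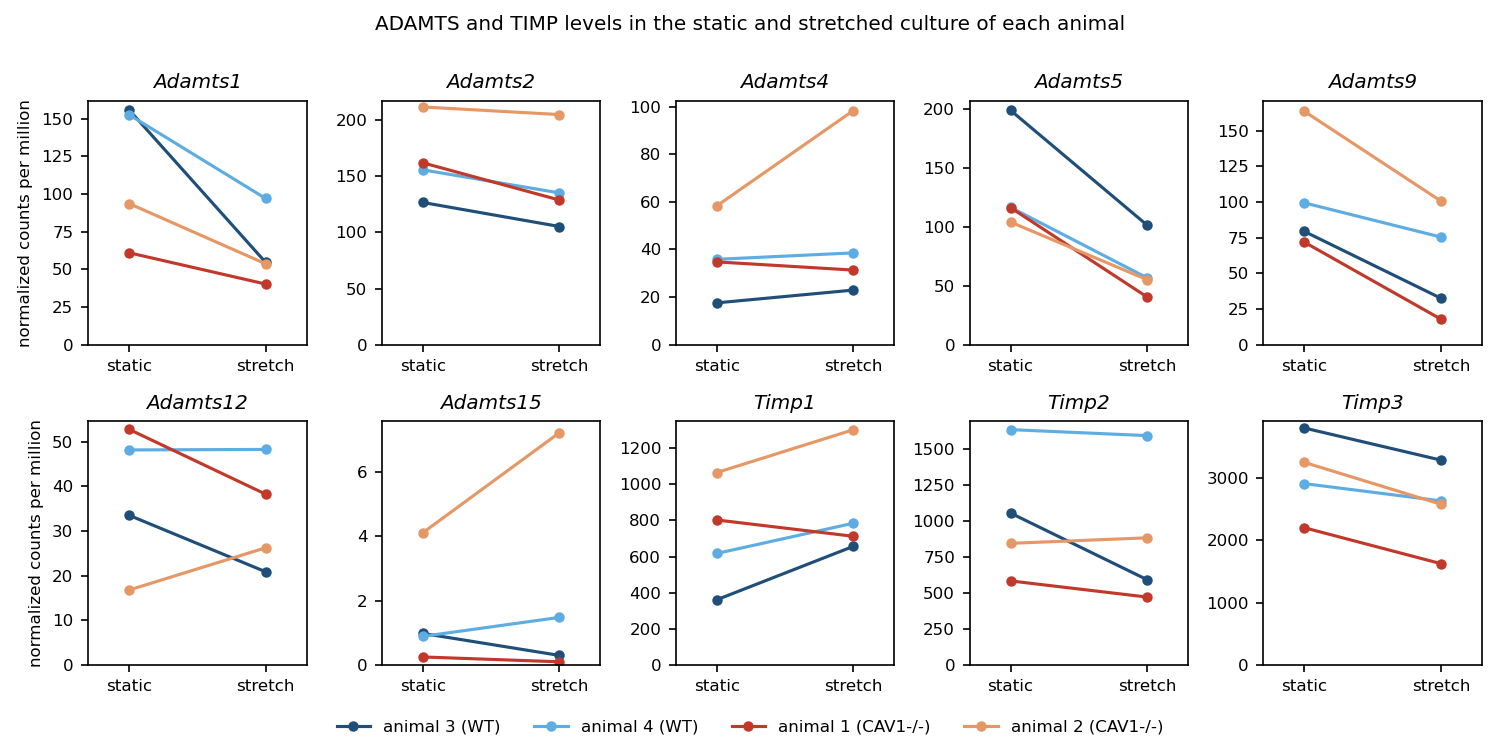
Normalized CPM of the 10 members in the static and the stretched culture of each animal, each line joining the cultures of 1 animal (blue, WT animals 3 and 4; red and orange, CAV1-/- animals 1 and 2). Every axis starts at 0; the Adamts1, Adamts2, Adamts5, Adamts9 and Timp3 lines slope down in all 4 animals, and those of Adamts12 and Adamts15 go both ways.

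Timp1, an inhibitor induced in many fibrotic tissues, was at 361 and 617 CPM in static WT, 803 and 1065 in static CAV1-/-, 657 and 785 in stretched WT and 712 and 1302 in stretched CAV1-/- MCs. Both static CAV1-/- cultures were above both static WT cultures, and after stretch the genotypes overlapped. The group means were 489 ± 181 and 934 ± 186 CPM in static culture and 721 ± 90.6 and 1007 ± 417 after stretch (SD, n = 2). The genotype difference was 0.97 in static (SE 0.378, limma unadjusted p = 0.0419, adjusted 0.579) and 0.42 in stretched cultures (adjusted p = 0.980). Without both cultures of animal 1, where leukocyte markers were high, these were 1.17 (adjusted p = 0.527) and 0.86 (adjusted p = 0.775), and the latter was -0.01 without the stretched culture of animal 2. The static difference was 0.58 (unadjusted p = 0.221) without the static culture of WT animal 3. On stretch Timp1 was higher by 82.0% and 27.1% in WT animals 3 and 4 and by 22.3% in animal 2, and lower by 11.3% in animal 1. The mean was 0.33 (SE 0.267, adjusted p = 0.991, and 0.174 with the animal as a block).

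Timp2, which also takes part in the activation of Mmp2 by Mmp14, was at 1056 and 1637 CPM in static WT, 584 and 846 in static CAV1-/-, 593 and 1595 in stretched WT and 472 and 884 in stretched CAV1-/- MCs. Static CAV1-/- cultures were both below static WT ones (-0.90, SE 0.551, limma adjusted p = 0.792), while stretched WT animal 3 lay between the CAV1-/- cultures (-0.59, adjusted p = 0.981). Leaving out the stretched culture of WT animal 4 turned the latter to 0.12, and without both cultures of CAV1-/- animal 1 it was -0.14. Stretched WT animal 3 also carried the stretch difference: its level was 43.9% lower than in static culture, against 19.2% lower in animal 1, 2.55% lower in animal 4 and 4.56% higher in animal 2. The mean was -0.28 (SE 0.389, adjusted p = 0.999). Without that culture it was 0.08, but this fit has no block and sets stretched animal 4 against both static WT cultures.

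Timp3 was at 3799 and 2907 CPM in static WT, 2199 and 3247 in static CAV1-/-, 3284 and 2631 in stretched WT and 1624 and 2575 in stretched CAV1-/- MCs. It was slightly lower on stretch in each animal, by 26.2%, 20.7%, 13.6% and 9.51% in animals 1 to 4 (mean -0.28, SE 0.236, limma adjusted p = 0.991, and 0.115 with the animal as a block). Genotypes overlapped in static culture (-0.31, SE 0.333, adjusted p = 0.892), and after stretch both CAV1-/- cultures were below both WT ones (-0.52, adjusted p = 0.950). Without CAV1-/- animal 1's culture of the condition these were -0.033 and -0.19. Timp3 lies within Syn3, a gene of the opposite strand whose exons cover 21.3% of its exonic length and which was at 2.62 to 5.35 CPM.

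For stretch against static, 5 of the 10 members were lower in all 4 animals, against 16.9% of all 13665 genes, and 0 were higher in all 4, against 14.5%. Adamts5 entered by this direction and nothing is read from these counts. Of the other 9 members, limma called 0 in the mean of both genotypes (0% of all genes) and 1, Adamts1, at an unadjusted p under 0.05 (4.73%). In WT alone 0 were called (0%) and 1, Adamts1, had an unadjusted p under 0.05 (2.27%), and in CAV1-/- alone 0 were called (0%) and 0 were under 0.05 (2.09%). The median difference of the 9 was -0.21 in the mean of both genotypes, against -0.01 for all genes. With the animal as a block 1 of 9 was called in the mean of both genotypes (Adamts1; 1.47% of all genes), 0 of 9 in WT (0%) and 0 of 9 in CAV1-/- MCs (0.00732%), while 5, 4 and 3 were under 0.05 unadjusted (21.02%, 14.5% and 13.3% of all genes). The quasi-likelihood test of edgeR and DESeq2 on the recovered reads called 0 of the 9 in these comparisons without a block, where edgeR called 0 of all genes and DESeq2 called 34 in the mean of both genotypes, 3 in WT and 7 in CAV1-/- MCs.

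**Figure D3:**
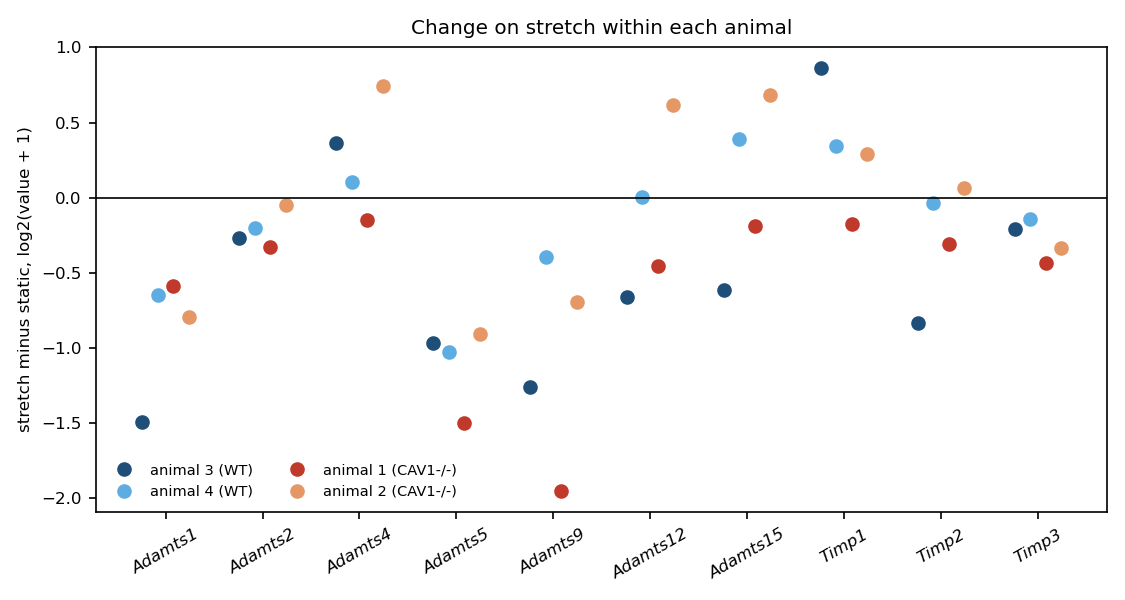
Difference between the stretched and the static culture of each animal on the log2(CPM + 1) scale, 1 point per animal (blue, WT animals 3 and 4; red and orange, CAV1-/- animals 1 and 2). Adamts1, Adamts5 and Adamts9 lay below 0 in all 4 animals, between -0.39 and -1.95, while Adamts2 and Timp3 lay below 0 but above -0.44.

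Between genotypes, the proteases and inhibitors of the set did not move in 1 direction. In static culture 3 of 10 members were lower in both CAV1-/- cultures than in both WT cultures (Adamts1, Adamts5 and Timp2; 20.8% of all genes) and 2 were higher (Adamts2 and Timp1; 16.1%). After stretch 3 were lower (Adamts1, Adamts5 and Timp3, against 15.9% of all genes) and 0 higher (14.6%). Adamts1 and Adamts5 were lower in both conditions, as were 1263 of all 13665 genes. In static culture limma called 0 of 10 (0.0732% of all genes), with 2 at an unadjusted p under 0.05, Adamts1 and Timp1 (8.17%). In stretched cultures it called 0 of 10 (0.0585%), with 0 under 0.05 (6.26%). edgeR and DESeq2 on the recovered reads also called 0 of 10 in either condition, where edgeR called 2 of all genes in static and 6 in stretched cultures and DESeq2 309 and 237. Adamts1 had the lowest p of the 10 in static culture, where CAV1-/- cultures held 0.501 times the WT mean. Its difference was -1.02 (SE 0.327, 95% confidence interval -1.82 to -0.22, adjusted p = 0.460), and -0.64 in stretched cultures (adjusted p = 0.900). Without both cultures of animal 1 these were -0.71 and -0.43, and without the stretched culture of WT animal 4 the latter was -0.23. The lower summed mesothelial marker level of all 4 CAV1-/- cultures moved with the genotype and cannot be told apart from it.

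**Figure D4:**
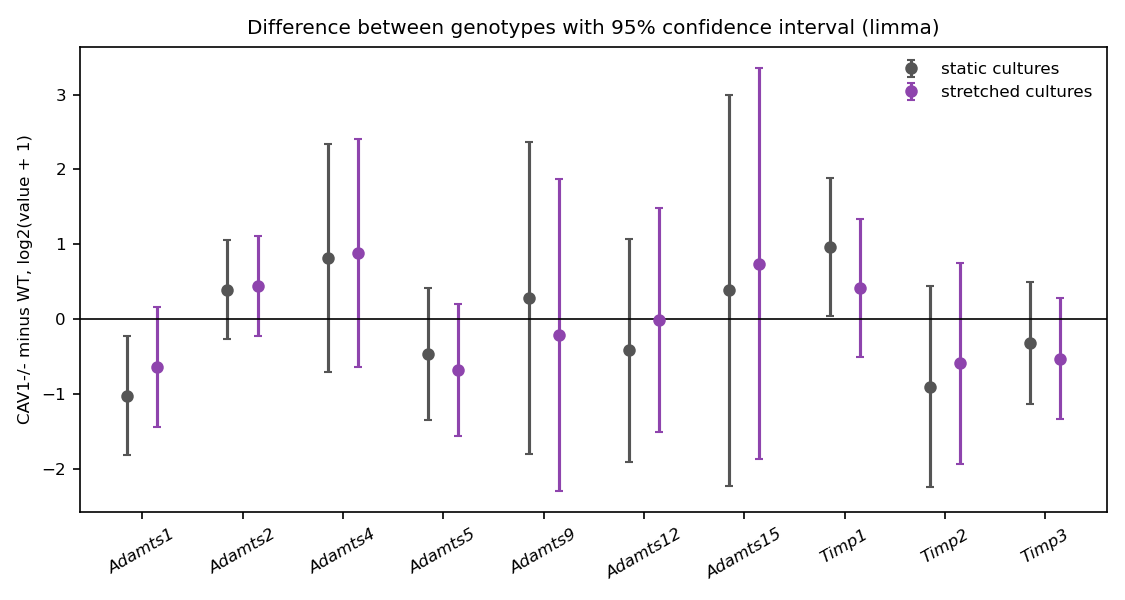
CAV1-/- minus WT on the log2(CPM + 1) scale for the 10 members in static (grey) and stretched (purple) cultures, with 95% confidence intervals from limma (2 cultures a group). Only the static intervals of Adamts1 (-1.82 to -0.22) and Timp1 (0.05 to 1.89) leave out 0.

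For the genotype by stretch interaction, limma called 0 of 9 members (0% of all genes, and 0% with the animal as a block), and 0 had an unadjusted p under 0.05 (0.483%). edgeR and DESeq2 called 0 as well. Timp1 had the lowest p with the animal as a block. Its stretch difference was 0.60 in WT and 0.06 in CAV1-/- MCs, an interaction of -0.55. In the limma fit without a block the 95% confidence interval was -1.85 to 0.76 (adjusted p = 1.00, and 0.947 with the animal as a block). That interval includes the spread between animals, and neither an equal response nor an absent one in CAV1-/- MCs can be told from it.

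The balance of inhibitors to proteases was described per kb of exon. The summed level of the 3 TIMPs was 20.1 and 27.4 times that of the 5 aggrecan- and versican-cutting members (Adamts1, 4, 5, 9 and 15) in static WT, 38.6 and 35.8 times in static CAV1-/-, 48.5 and 44.0 times in stretched WT and 58.9 and 46.7 times in stretched CAV1-/- MCs. The ratio was higher in the stretched culture of each animal. This ratio contains Adamts5, so its direction on stretch is in part given by the choice of the set. Timp3, given above as the main inhibitor of the aggrecan-cutting enzymes, was only 15.7% to 40.8% of the summed TIMP level over the 8 libraries. The rest of that sum was Timp1 and Timp2. Timp3 for each unit of Adamts5 went from 25.3 to 42.9 and from 33.0 to 61.4 in WT animals 3 and 4, and from 25.04 to 53.2 and from 41.3 to 61.9 in CAV1-/- animals 1 and 2. The Adamts5 values that it is divided by are those that placed Adamts5 in the set, so nothing is read from its direction. Among the inhibitors themselves, Timp1 made up 35.5% and 47.2% of the summed TIMP level in static WT and 57.1% and 54.7% in stretched WT. In the 4 CAV1-/- libraries, from 2 animals, it was 66.1% to 73.0%, above all WT libraries. This share was not tested, and after stretch Timp1 and Timp2 each overlapped between the genotypes. The ratio of Timp1 to Timp2 was 1.498 and 1.65 in static WT, 4.86 and 2.16 in stretched WT and 5.53 to 6.62 in CAV1-/- MCs.

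Across the 8 libraries, which share 4 animals and 4 groups, the members that varied most alike were Adamts4 and Timp1 (Pearson r = 0.924 of log2(CPM + 1), as a description), followed by Adamts2 and Adamts4 (0.856), Adamts4 and Adamts15 (0.816) and Adamts1 and Timp2 (0.812). Adamts1 and its neighbour Adamts5 had an r of 0.688, and Adamts5 and Timp1 the lowest of all 45 pairs (-0.598). Over all genes the 5 with patterns most like Adamts5 were Sema3c, a secreted semaphorin (0.986), Mrpl4, a mitochondrial ribosomal protein (0.982), Ccs, the copper chaperone of superoxide dismutase (0.972), Kxd1 (0.965) and Id3, an inhibitor of helix-loop-helix factors (0.961). The gene most like each other member was Hdac6 for Adamts1 (0.984), Rnf4 for Adamts2 (0.988), Rcc1 for Adamts4 (0.981), Mum1l1 for Adamts9 (0.9747), Rps6kc1 for Adamts12 (0.969), Eid2 for Adamts15 (0.980), Arpc1a for Timp1 (0.981), 2810430I11Rik for Timp2 (0.996) and Gm12505 for Timp3 (0.992). No p is given, since each gene was picked as the highest of 13665.

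The other genes of the pathway were taken from 4 lists, and in the limma fit without a block 0 genes of any list were called in any comparison. On the recovered reads without a block, edgeR called 0 of the 34 and DESeq2 called Sdc4 for stretch in the mean of both genotypes (adjusted p = 0.020) and Nid2 between genotypes after stretch (adjusted p = 0.0117), and no other. With the animal as a block, 6 of 34 measured genes were called for stretch in the mean of both genotypes, against 1.47% of all genes. The lists were chosen with earlier results of these data known, so nothing is read from this count. Of 5 measured further ADAMTS proteases, 1 was called higher and 0 lower, while in estimate 1 was higher and 4 lower. The called gene was Adamts6, which was at 12.4 and 10.01 CPM in static WT, 22.3 and 16.2 in stretched WT, 27.3 and 12.7 in static CAV1-/- and 48.8 and 25.1 in stretched CAV1-/- MCs (0.80, SE 0.0849, limma adjusted p = 0.0291). It was higher on stretch in 4 of 4 animals, opposite in direction to Adamts1. Adamts7 (36.3 to 104 CPM) and Adamts10 (31.4 to 59.7 CPM) were the most abundant of this list. The list median was -0.04, against -0.01 for all genes.

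Of 6 measured ADAMTS-like proteins, matrix proteins of the same architecture without a catalytic domain, 1 was called lower and 0 higher with the animal as a block, while in estimate 1 was higher and 5 lower. The called gene was Adamtsl1, lower in 4 of 4 animals (-0.63, SE 0.102, limma adjusted p = 0.0467). Thsd4, which promotes fibrillin microfibril assembly, was at 22.7 and 31.2 CPM in static WT, 6.31 and 17.2 in stretched WT, 9.40 and 50.5 in static CAV1-/- and 1.16 and 31.8 in stretched CAV1-/- MCs. Its mean difference was larger but the animals were further apart (-1.36, SE 0.272, adjusted p = 0.0720). The list median was -0.55.

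Of 13 measured substrates and TIMP targets, 1 was called lower and 0 higher with the animal as a block, while in estimate 4 were higher and 9 lower. The called gene was Nid2, a basement membrane linker that ADAMTS proteases can cut. Its levels were 1263 and 1675 CPM in static WT, 289 and 1090 in stretched WT, 100.1 and 321 in static CAV1-/- and 20.0 and 117 in stretched CAV1-/- MCs. It was lower on stretch in 4 of 4 animals (-1.62, SE 0.245 and limma adjusted p = 0.0421 with the animal as a block, 0.984 without). Each CAV1-/- culture was also below both WT cultures of its condition (-3.01 in static and -3.50 in stretched cultures, adjusted p = 0.493 and 0.516 without a block). The collagens Col1a1 (6884 to 15404 CPM) and Col1a2 (3451 to 9138 CPM) and Thbs1 (3088 to 10533 CPM) were the most abundant and none was called. The list median was -0.09.

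Of 10 measured activation, clearance and cofactor genes, 1 was called higher and 2 lower with the animal as a block, while in estimate 5 were higher and 5 lower. Furin, the convertase that removes the propeptide of most ADAMTS enzymes, was at 127 and 174 CPM in static WT, 188 and 199 in stretched WT, 176 and 168 in static CAV1-/- and 317 and 244 in stretched CAV1-/- MCs (0.53, SE 0.0857, limma adjusted p = 0.0466). Pcsk6, a convertase of the same family, was at 239 and 110 CPM in static WT, 112 and 74.2 in stretched WT, 115 and 39.7 in static CAV1-/- and 75.9 and 20.7 in stretched CAV1-/- MCs (-0.79, SE 0.104, adjusted p = 0.0327). The 2 convertases thus went in opposite directions in each of the 4 animals. Sdc4, a heparan sulfate proteoglycan that activates Adamts5 in cartilage, was lower in 4 of 4 animals by nearly the same amount, between -0.53 and -0.64 (mean -0.59, SE 0.0549, adjusted p = 0.0278). Lrp1, the receptor that clears several ADAMTS enzymes and TIMPs, was at 1190 to 2880 CPM, Mmp14 at 862 to 1525 CPM and Mmp2 at 241 to 825 CPM, and none of them was called. The list median was -0.05. In the fits with the animal as a block but without animal 1 or animal 2, none of the 6 genes was called, and of all genes 0 and 5 were. edgeR with the same block called 4 of the 6 (Adamts6, Adamtsl1, Pcsk6 and Sdc4).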

How the data were processed

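PolyA RNAseq was made from 4 static and 4 stretched MC cultures. The authors trimmed reads with Cutadapt, assigned them to the GRCm38 transcriptome with RSEM and scaled the estimates by TMM in edgeR. The deposited signal is TMM-normalized CPM of 13687 genes after low genes had been left out, the values of a library being whole multiples of the value of 1 read (100% whole, tolerance 0.1), so reads could be recovered (9777738 to 21203938 a library; 3 reads, 0.146 to 0.308 CPM, taken as detectable, for counting error only).

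A pseudocount of 1 was added before log2. The 13665 genes that reached 1 CPM in 2 or more libraries were fitted as 4 group means in limma (3.58.1, under R 4.3.3), with an intensity trend and Benjamini-Hochberg adjustment, called under 0.05. The blocked fit pairs the cultures that the labels give to the same animal: their deviations from the group means correlated at 0.703 in WT and 0.850 in CAV1-/- animals over genes. Alternatives were pseudocounts of 0.1 and 5, other filters, rescaling by the median of ratios, no trend, edgeR (4.0.16) and DESeq2 (1.42.0) on recovered reads, and cultures or animals left out. Tests were checked on simulated data.

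Members and lists were chosen with earlier results of these data known. All members were named, with list genes called in either fit or among the 3 most abundant of their list, the 5 genes most like Adamts5 and the 1 most like each other member. Positions and exonic lengths are from GENCODE M21 (GRCm38) and promoters from RefSeq (GRCm38.p6). Nothing states that the cultures are independent beyond the 4 animals.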

Additional observations from a re-analysis of the deposited data

How the results depend on the processing

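Without a block, 0 members were called in each of the 6 comparisons, and this count stayed at 0 under the other pseudocounts, filters, scaling and tools, and at 0 with any 1 culture left out. It also stayed at 0 without both cultures of CAV1-/- animal 1. With the animal as replicate block, 1 member (Adamts1) was called for stretch in the mean of both genotypes (201 of all genes). With the block and other animals left out, chosen after seeing the data, the count in that comparison was 1 without animal 3 (124 of all 13665 genes) and 3 without animal 4 (Adamts1, Adamts9 and Timp2; 769 of all genes). In WT it was 2 without animal 4 (300 of all genes), and in CAV1-/- MCs 1 without animal 3 (164) and 1 without animal 4 (163). Without animal 1 or 2 no member was called, in fits where almost no gene at all was called. By edgeR with the animal as a block the count was 0 in each stretch comparison, with 152 of all genes called in the mean of both genotypes.

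In the genotype comparisons the number in the labels names different animals, and a block on it called 0 members, with Adamts1 at an adjusted p of 0.0778 and Timp1 at 0.0663 in static culture, while it called 246 of all genes in static and 110 in stretched cultures. Among these was Nid2, at an adjusted p of 0.0449 in static and 0.0485 in stretched cultures. Over genes, same-numbered animals of the 2 genotypes deviated together with r = 0.522 in static and 0.484 in stretched cultures.

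Of 656 alternative values for 32 differences given for single genes, 652 kept their sign. The other 4 were Timp1 after stretch between genotypes (-0.011 without the stretched culture of animal 2, highest 0.86), Timp2 in the same comparison (0.12 without the stretched culture of animal 4, lowest -1.30), Adamts4 on stretch (-0.14 without the stretched culture of animal 2, highest 0.67) and Timp2 on stretch (0.078 without the stretched culture of animal 3, lowest -0.64). The cause was not tested. Fits without 1 culture assume that the lone culture of that group varies like the other groups. For Adamts4 and Timp2 on stretch they also left the static culture of the same animal without its pair. Depth limits Adamts15 most, with 2 to 132 reads a library.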
